A study of Mus musculus with 4 samples.

Results

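The aminoacyl-tRNA synthetases are the enzymes that load each tRNA with its amino acid before translation. Their genes were taken from the islet table by symbol, namely 20 genes of the cytosolic enzymes and 16 genes of the mitochondrial ones, whose symbols end in a 2. These are 36 of the 24012 gene symbols in the table, and each was represented by its entry with the highest mean over the libraries. The 36 symbols had 57 entries, of which 42 held distinct values, and *Dars*, *Farsb*, *Qars*, *Wars* and *Tars2* had several distinct entries.

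All libraries were made from total RNA of whole islets of wild-type male C57bl6 mice, 3 months of age, whose islets had been pooled and kept overnight at 11 mM glucose and then for 2 h at 2.8 mM glucose. After this the islets were held at 2.8 mM or at 16.8 mM glucose, with 2 libraries at each concentration, numbered 1 and 2. The design text gives 12 h for both concentrations. The labels of the samples disagree with it at 2.8 mM, where they state 2 h, and state 12 h at 16.8 mM, so a difference in glucose and a difference in time cannot be told apart if the labels hold. Because the islets came from a pool, the spread between libraries of a group is that between cultures or preparations and may be technical. An islet is a mixture of endocrine and other cells, in which fewer cells of a type and less RNA per cell cannot be told apart.

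Each synthetase recognises its own tRNAs and joins the matching amino acid to them in a reaction driven by ATP. The enzymes fall into class I and class II by the fold of their catalytic part, and several cytosolic ones sit in the multi-synthetase complex, held together by scaffold proteins. The mitochondrial enzymes are encoded in the nucleus and imported, and *Gars* and *Kars* each make enzyme for both compartments. Many cytosolic synthetase genes are known targets of ATF4, the transcription factor of the integrated stress response, which binds composite C/EBP-ATF sites.

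The letters of such a site were looked for in the promoters of the members, to show which genes carry them beside how their RNA differed. RefSeq promoters on GRCm38.p6, from 250 bases before to 50 bases after the start, were available for 13 cytosolic and 14 mitochondrial members. TGATGNAA was searched on both strands (its reverse complement is TTNCATCA), and no other motif was searched. It lay in a promoter of 5 of the 13 cytosolic members and of 0 of the 14 mitochondrial ones. Of all 27025 genes with a promoter of this length 4.51% held it, and of all 32851 promoters 3.97%. The stretches from 120 bases before to 20 bases after the start of these 5 genes, read 5′ to 3′ on the strand of the gene, have the matched letters in capitals. They are *Yars* at chr4:129189783-129189922 (plus strand), *Aars* at chr8:111033722-111033861 (plus strand), *Iars* at chr13:49682010-49682149 (plus strand), *Gars* at chr6:55037881-55038020 (plus strand) and *Tars* at chr15:11399639-11399778 (minus strand).
Yars: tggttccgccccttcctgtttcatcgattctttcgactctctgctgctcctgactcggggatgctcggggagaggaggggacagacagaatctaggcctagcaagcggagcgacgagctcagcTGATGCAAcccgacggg
Aars: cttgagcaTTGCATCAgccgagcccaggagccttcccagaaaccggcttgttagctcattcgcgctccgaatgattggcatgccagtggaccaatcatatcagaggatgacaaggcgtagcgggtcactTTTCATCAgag
Iars: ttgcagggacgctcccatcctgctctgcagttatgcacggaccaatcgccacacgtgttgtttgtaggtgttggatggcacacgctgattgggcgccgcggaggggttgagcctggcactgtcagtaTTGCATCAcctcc
Gars: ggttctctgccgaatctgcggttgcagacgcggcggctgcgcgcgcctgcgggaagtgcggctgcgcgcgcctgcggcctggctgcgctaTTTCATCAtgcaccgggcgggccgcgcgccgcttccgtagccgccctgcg
Tars: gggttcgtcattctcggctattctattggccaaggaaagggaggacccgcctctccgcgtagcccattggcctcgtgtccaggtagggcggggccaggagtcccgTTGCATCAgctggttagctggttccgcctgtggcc

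The letters are a match and not a measured binding site. With C in the open position they lay in *Yars*, *Aars*, *Iars* and *Tars*, against 1.03% of all genes and 0.895% of all promoters. *Aars* also carried a second match. Of the 5 genes, *Yars*, *Aars* and *Iars* were lower at 16.8 mM glucose, whereas *Gars* and *Tars* did not pass the limma test. No match lay in this window of 8 other cytosolic members. Of these *Eprs*, *Sars* and *Kars* were lower, *Mars* was lower with an uncertain direction described with its values, *Dars*, *Farsa* and *Qars* were not called and *Farsb* was not tested. No promoter was available for *Vars* and *Nars*, which were lower, or for *Cars*, *Hars*, *Lars*, *Rars* and *Wars*, which were not called.

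Expression was deposited as RPKM, the reads of an entry per kilobase of its length, scaled to the depth of the library. The length that best turned these values into whole reads was that from the first to the last base of a transcript with its introns, so reads of other transcripts within a span can be part of a value. Depth, recovered from the steps of the values, was between 50799100 and 60706000 reads per library. The islet label was met by the 6 islet hormone genes, which summed to 26570 and 23340 RPKM at 2.8 mM and to 47550 and 43810 RPKM at 16.8 mM. The 6 exocrine markers summed to 79.7 and 225.7 RPKM at 2.8 mM and 191.1 and 404.7 RPKM at 16.8 mM, with a higher mean at 16.8 mM for all 6. Of these, 0 passed the limma test described next, 3 had an unadjusted p under 0.05 and all 6 were higher in a second fit, made with voom on reconstructed reads and called the fit on reads here. The 2 duct markers summed to 1.36 and 4.09 RPKM at 2.8 mM and 4.42 and 7.84 RPKM at 16.8 mM, and the 3 endothelial markers to 1.55 and 0.992 RPKM and 1.92 and 1.28 RPKM. In the fit on reads *Krt19* of the former and *Pecam1* and *Cdh5* of the latter were higher at 16.8 mM. The 3 stromal markers summed to between 1.32 and 2.72 RPKM, and of the 3 leukocyte markers *Cd68* stood between 6.76 and 9.74 RPKM while *Ptprc* and *Emr1* were near 0. The part of these markers in the results on the synthetases was not tested.

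The difference between the concentrations was tested with limma on log2(RPKM + 0.5) over the 7867 distinct entries with a mean of at least 1 RPKM, with a Benjamini-Hochberg adjusted p under 0.05 as the threshold. A change on this scale understates that of a low gene. Of these entries 22.8% were lower and 10.7% higher at 16.8 mM glucose, and their median log2 change was -0.11, which became -0.06 without 2.8 mM replicate 1 or 16.8 mM replicate 2. Among the 36 members 25 were tested, 12 were lower, 0 were higher and 13 were not called. The other 11, *Farsb* and 10 mitochondrial genes, had a mean under 1 RPKM.

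**Figure D1:**
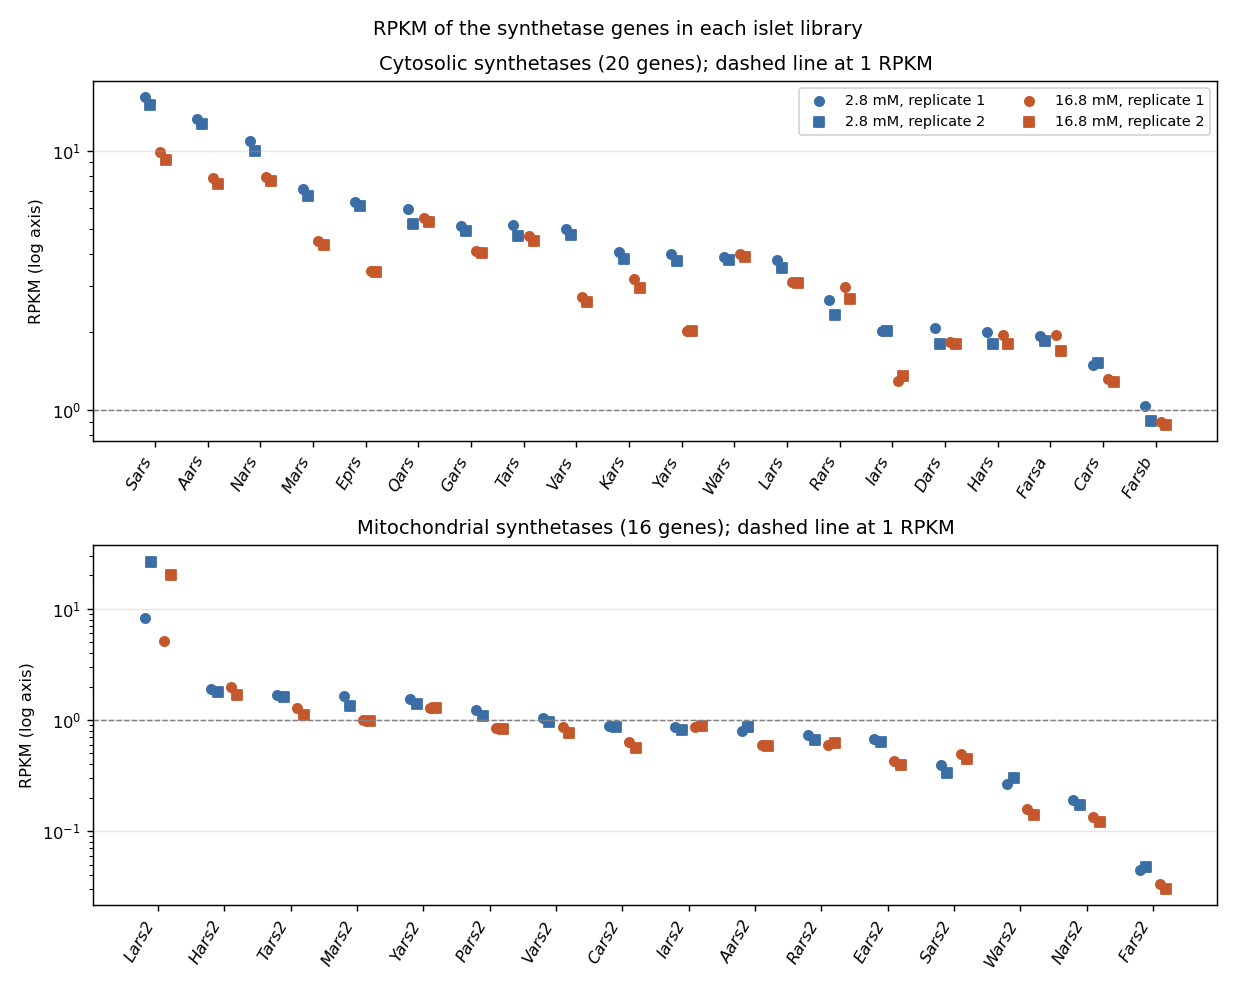
RPKM (log axis) of the 20 cytosolic and 16 mitochondrial synthetase genes in each of the 4 islet libraries, ordered by the mean at 2.8 mM glucose, with blue points for 2.8 mM, orange points for 16.8 mM, circles for replicate 1 and squares for replicate 2. Both orange points lie below both blue points for 26 of the 36 genes, and *Lars2* is the gene whose replicates stand far apart. Of all entries in the limma fit 48.3%, and of those in the fit on reads 46.9%, had both 16.8 mM libraries below both 2.8 mM libraries.

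The cytosolic synthetases were lower at 16.8 mM glucose for 9 of 19 tested genes, namely *Yars*, *Eprs*, *Vars*, *Aars*, *Sars*, *Mars*, *Iars*, *Nars* and *Kars*, and higher for 0, with 0 also at an unadjusted p under 0.05. Their median log2 change was -0.27, with a range from -0.80 to 0.16, beside -0.11 for all entries tested. The median RPKM of the 20 genes was 4.02 and 3.80 in the 2.8 mM libraries and 3.16 and 3.02 in the 16.8 mM libraries. Both 16.8 mM libraries were below both 2.8 mM libraries for 13 of the 19, while 48.3% of all tested entries showed this. The enzymes differed in the size of the change, and the genes are described in its order.

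*Yars*, which encodes tyrosyl-tRNA synthetase (chr4:128867004-128896851, plus strand, NCBI build 37), had 3.99 and 3.77 RPKM at 2.8 mM and 2.01 and 2.01 RPKM at 16.8 mM. This was the largest fall among the tested members, 48.1% in mean RPKM, with a log2 change of -0.80 ± 0.09 (SE, n = 2 per group, limma adjusted p = 0.00117). *Eprs* encodes the bifunctional enzyme for glutamate and proline, the only member that joins a class I and a class II part in a single chain. It went from 6.36 and 6.09 RPKM to 3.44 and 3.40 RPKM, a log2 change of -0.78 ± 0.10 (adjusted p = 0.00174). *Vars*, the valyl enzyme, fell from 4.98 and 4.72 RPKM to 2.72 and 2.62 RPKM, a log2 change of -0.75 ± 0.09 (adjusted p = 0.00174). In these 3 genes the replicates differed by far less than the concentrations did.

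The alanyl and seryl enzymes had the highest RPKM of the cytosolic members at 2.8 mM. *Aars* had 13.3 and 12.7 RPKM at 2.8 mM and 7.83 and 7.43 RPKM at 16.8 mM, a log2 change of -0.73 ± 0.11 (adjusted p = 0.00363). *Sars* had the highest RPKM over the span of all cytosolic members, 16.03 and 15.01 RPKM at 2.8 mM against 9.84 and 9.21 RPKM at 16.8 mM, a log2 change of -0.68 ± 0.11 (adjusted p = 0.00569). The lowest 2.8 mM library of each gene stood well above its highest 16.8 mM library. Per kilobase of exon the order differed, with 88.4 for *Sars*, 87.2 for *Gars* and 53.7 for *Aars* at 2.8 mM and 54.3, 70.9 and 31.5 at 16.8 mM. On this scale *Eprs*, *Nars* and *Lars* also stood above *Aars*, at 83.8, 66.6 and 56.5 at 2.8 mM and 46.0, 49.9 and 48.1 at 16.8 mM. At 16.8 mM *Wars* (47.5) and *Rars* (35.15) did so too. *Iars*, the isoleucyl enzyme, fell from 2.02 and 2.01 RPKM to 1.30 and 1.35 RPKM, a log2 change of -0.46 ± 0.08 (adjusted p = 0.00568).

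The fall of *Nars* and *Kars* was smaller and its call rested on single libraries. *Nars*, the asparaginyl enzyme, had 10.8 and 9.92 RPKM at 2.8 mM and 7.89 and 7.65 RPKM at 16.8 mM (log2 change -0.39 ± 0.11, adjusted p = 0.0326). *Kars*, the lysyl enzyme of cytosol and mitochondria, had 4.06 and 3.81 RPKM at 2.8 mM and 3.20 and 2.94 RPKM at 16.8 mM (log2 change -0.31 ± 0.10, adjusted p = 0.0434). Neither gene's groups overlapped. *Kars* lost its call when any of the 4 libraries was left out, with an adjusted p of up to 0.222, and *Nars* lost it without 2.8 mM replicate 1 or without either 16.8 mM library, with an adjusted p of up to 0.167.

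*Mars*, the methionyl enzyme, shared bases with a gene that fell much further. It lies on chr10:126733277-126748842 (minus strand, NCBI build 37), and its last 68 bases overlap the end of *Ddit3* on the opposite strand. *Mars* had 7.10 and 6.68 RPKM at 2.8 mM and 4.48 and 4.33 RPKM at 16.8 mM, a log2 change of -0.59 ± 0.10 (adjusted p = 0.00569). *Ddit3*, which encodes the stress-induced factor CHOP, had 71.4 and 65.4 RPKM at 2.8 mM and 10.1 and 8.34 RPKM at 16.8 mM, a log2 change of -2.83.

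The libraries were made with the TruSeq RNA kit v2, which does not mark strand, so reads of the shared bases cannot be assigned to either gene. The share of *Ddit3* reads in the shared bases was set at 13.1%, taken over its 890 exon bases. It counted every position at which a read of 50 bases would touch the shared bases, also across the end of *Ddit3*. Reads cannot run past that end, so 13.1% is more than an even spread would give. At this share, 3028 and 2463 of the 6459 and 5400 *Mars* reads at 2.8 mM would be taken off, and 444 and 307 of the 4229 and 3426 reads at 16.8 mM. The reads left amounted to 3.77 and 3.63 RPKM at 2.8 mM and to 4.01 and 3.94 RPKM at 16.8 mM, a log2 change of 0.09 in the opposite direction. This subtraction was chosen after the data were seen and takes off more reads than an even spread would. Smaller shares, with which the direction may not turn, were not computed. The size of the fall of *Mars*, and at this share its direction, is therefore uncertain. Without *Mars* 8 of 18 tested cytosolic genes were lower, with a median log2 change of -0.24.

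**Figure D2:**
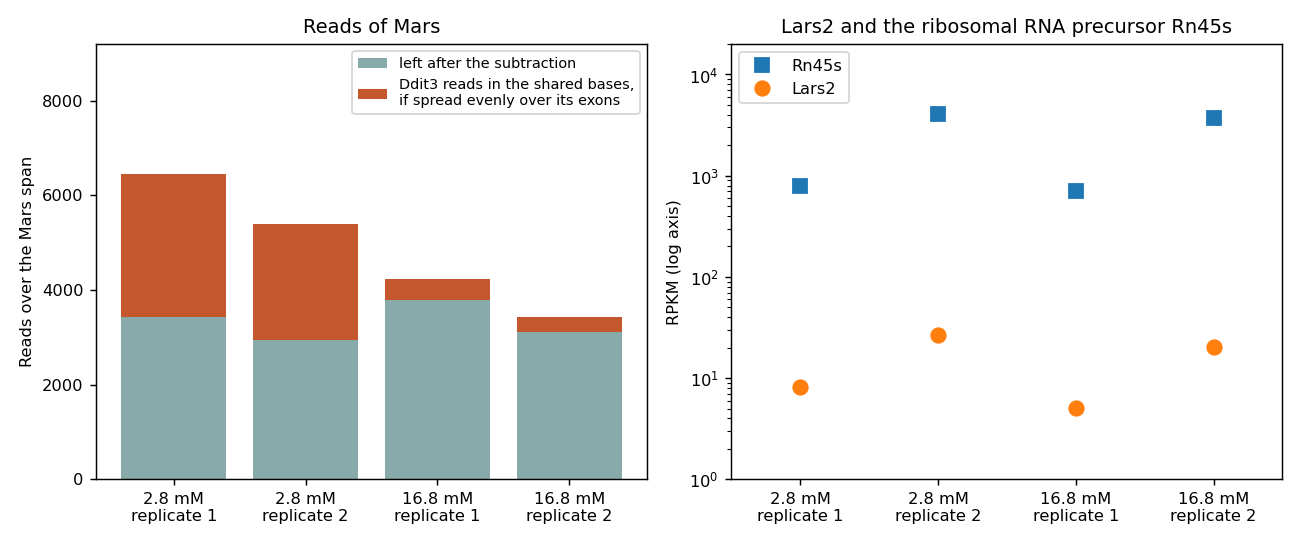
Left, reads over the *Mars* span in each islet library, split into a 13.1% share of the *Ddit3* reads (orange) and the reads left (grey). This share is more than *Ddit3* reads spread evenly over its exons would give, although the legend in the panel names it as an even spread. The reads left were 3431 and 2937 at 2.8 mM and 3785 and 3119 at 16.8 mM. Right, RPKM (log axis) of *Lars2* and of *Rn45s* in the same libraries, both higher in replicate 2 than in replicate 1 at each concentration.

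The other 10 tested cytosolic members were not called. *Gars*, the glycyl enzyme, was closest to the threshold, with 5.13 and 4.91 RPKM at 2.8 mM and 4.12 and 4.04 RPKM at 16.8 mM (log2 change -0.27 ± 0.10, adjusted p = 0.0669). The leucyl and cysteinyl enzymes *Lars* and *Cars* had log2 changes of -0.20 ± 0.09 and -0.16 ± 0.08 with no overlap of the groups, and *Tars*, the threonyl enzyme, of -0.10 ± 0.10. For *Dars*, *Farsa*, *Qars*, *Hars* and *Wars* the libraries of the groups overlapped and the log2 changes lay between -0.07 and 0.03, each smaller than its SE of 0.09 to 0.11.

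*Rars*, the arginyl enzyme, was the only cytosolic gene whose 16.8 mM libraries both stood above the 2.8 mM libraries, at 2.99 and 2.69 RPKM against 2.65 and 2.32 RPKM. Its log2 change of 0.16 ± 0.10 did not pass (adjusted p = 0.246). With each library centred on its median over the tested entries, however, *Rars* was called higher and 10 cytosolic genes were called lower, beside 21.1% and 26.7% of all entries called higher and lower. *Farsa* and *Farsb* encode the subunits of the phenylalanyl enzyme, and *Farsb* was at 1.03 and 0.907 RPKM at 2.8 mM and 0.900 and 0.876 RPKM at 16.8 mM, too low for the test. The *Dars* entry used covered a span of 5.30 kb, only a part of the 53.7 kb gene.

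Reads rather than RPKM could be tested for genes below the minimum. With voom on the reconstructed reads of 17383 entries with a mean of at least 20 reads, 29.1% of entries were lower and 13.7% higher at 16.8 mM, and the median log2 change was -0.12. The cytosolic members were lower for 11 of 20 and higher for 0 in this fit, *Gars* (log2 change -0.30 ± 0.09) and *Lars* (-0.23 ± 0.09) being the additions to the 9 named above. *Farsb* was not called (-0.13 ± 0.10).

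**Figure D3:**
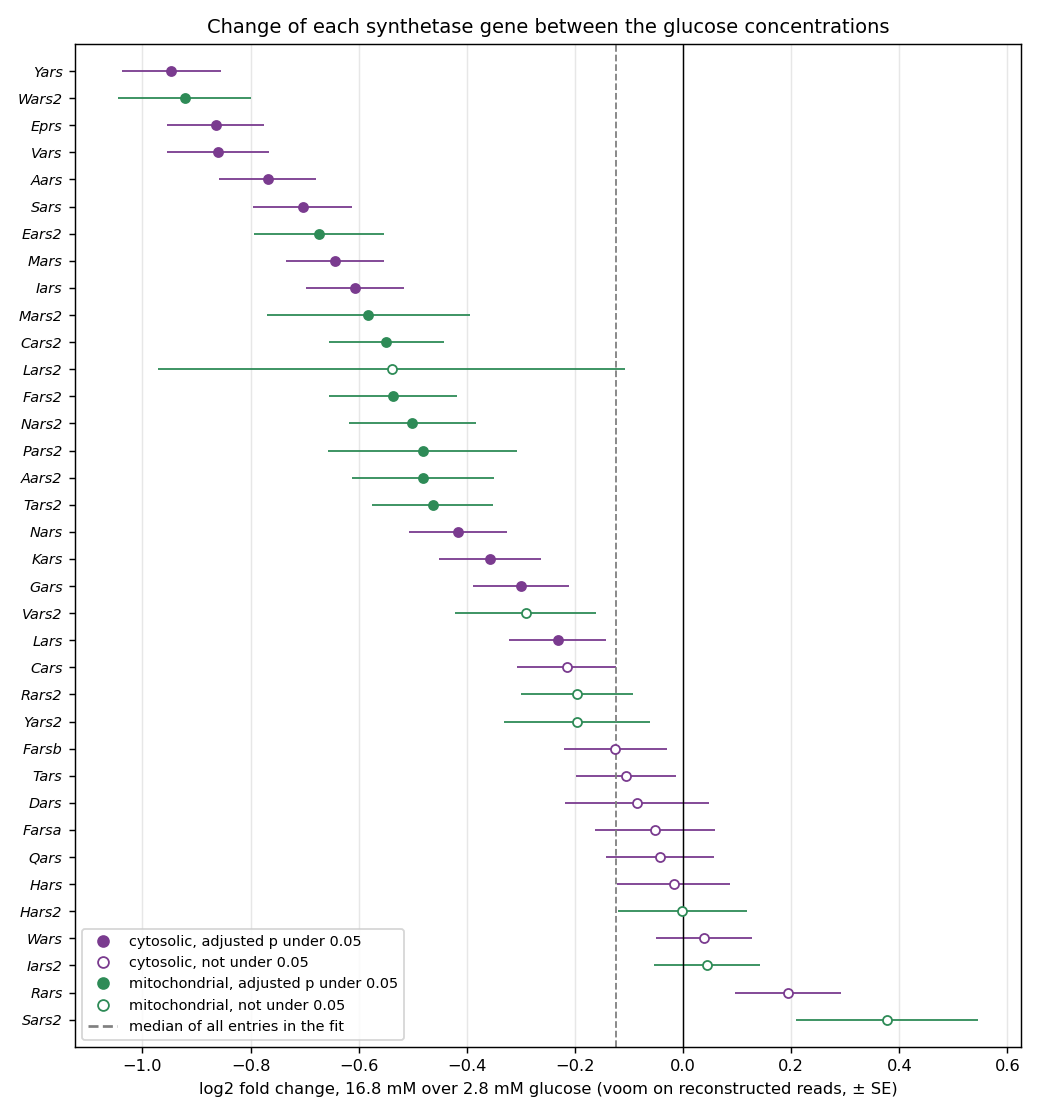
Log2 fold change (16.8 mM over 2.8 mM glucose) ± SE of each of the 36 synthetase genes from voom on reconstructed reads, purple for cytosolic and green for mitochondrial genes, filled where the adjusted p is under 0.05, with the median of all entries (-0.12) as a dashed line. The 20 filled points all lie left of that line, and *Rars* and *Sars2* have the highest values.

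Genes that fell were found inside and outside the multi-synthetase complex. Of the 8 genes of the complex, *Eprs*, *Iars*, *Kars* and *Mars* were lower and *Dars*, *Lars*, *Qars* and *Rars* were not called, with a median log2 change of -0.26. Without *Mars*, whose direction is uncertain, 3 of 7 were lower, with a median of -0.20. Of the 11 tested genes outside it 5 were lower, with a median of -0.27. By class, 4 of 9 class I genes (median -0.20) and 4 of 9 tested class II genes (median -0.27) were lower, *Eprs* being left out of both, and without *Mars* 3 of 8 class I genes were lower (median -0.18). Among all entries in the limma fit 22.8% were lower. No test between these groups was made.

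Of the scaffold genes *Aimp1* was lower (2.35 and 2.12 RPKM against 1.41 and 1.27 RPKM, log2 change -0.57, adjusted p = 0.00431), whereas *Aimp2* stood at 2.29 and 2.18 RPKM against 2.49 and 2.05 RPKM, with overlapping groups. *Eef1e1* was under the minimum, at 1.17 and 0.984 RPKM against 0.672 and 0.587 RPKM, and was lower in the fit on reads (log2 change -0.77). Of 12 listed partner genes with values, 5 were tested, and 2 were lower and 0 higher by limma, with 0 higher also at an unadjusted p under 0.05 and in the fit on reads, which called 5 of 11 lower. The second was *Aarsd1*, which encodes an editing protein for mischarged tRNA-Ala (2.46 and 2.30 RPKM against 1.48 and 1.46 RPKM, log2 change -0.55, adjusted p = 0.00372). *Gatc*, a subunit of the mitochondrial amidotransferase that makes glutaminyl-tRNA, had a log2 change of -0.24 (adjusted p = 0.107). Beside these counts, 22.8% of all entries were lower in the limma fit and 29.1% in the fit on reads.

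The mitochondrial synthetases were mostly rare, with a median of 0.873 and 0.860 RPKM at 2.8 mM and 0.738 and 0.693 RPKM at 16.8 mM. The mean RPKM was lower at 16.8 mM for 14 of the 16 genes and both libraries were lower without overlap for 12 (4 of the 6 that reached the minimum of the limma fit), while 46.9% of all entries in the fit on reads and 48.3% of those in the limma fit showed this. The median log2 ratio of mean RPKM was -0.47, beside -0.13 over the tested entries of the table. Of the 6 genes in the limma fit *Mars2*, *Pars2* and *Tars2* were lower and 0 were higher, with 0 also at an unadjusted p under 0.05. Among all entries in that fit 22.8% were lower and 10.7% higher.

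*Tars2*, the mitochondrial threonyl enzyme, had 1.67 and 1.62 RPKM at 2.8 mM and 1.28 and 1.11 RPKM at 16.8 mM (log2 change -0.34 ± 0.09, adjusted p = 0.0222). *Mars2*, the methionyl enzyme, which has no intron, had 1.63 and 1.35 RPKM against 1.01 and 0.977 RPKM (-0.41 ± 0.09, adjusted p = 0.0156). *Pars2*, the prolyl enzyme, had 1.24 and 1.10 RPKM against 0.848 and 0.822 RPKM (-0.32 ± 0.08, adjusted p = 0.0225). The groups did not overlap for these 3 genes. *Mars2* and *Pars2* were not above 1 RPKM in every library at 16.8 mM and so passed the minimum through the group where they are higher. All 3 calls were lost without 2.8 mM replicate 1 (adjusted p of up to 0.0911 over the libraries left out), and *Tars2* also without 16.8 mM replicate 2.

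In the voom fit on reads, which covered all 16 genes, 9 were lower and 0 higher, beside 29.1% and 13.7% of all entries in it. *Wars2*, the tryptophanyl enzyme, had the largest change, from 0.264 and 0.300 RPKM to 0.158 and 0.139 RPKM (1223 and 1233 reads against 758 and 557 reads), a log2 change of -0.92 ± 0.12 (adjusted p = 7.87e-06). *Ears2*, the glutamyl enzyme, followed with 0.675 and 0.637 RPKM against 0.432 and 0.391 RPKM (-0.67 ± 0.12, adjusted p = 1.80e-04). *Cars2*, *Fars2*, *Nars2* and *Aars2*, the cysteinyl, phenylalanyl, asparaginyl and alanyl enzymes, had log2 changes of -0.55, -0.54, -0.50 and -0.48, with adjusted p values from 4.14e-04 to 0.00636. None of these 6 genes was called by limma when the minimum was dropped (adjusted p from 0.0505 to 0.0799), and the fits differ in unit, in the 0.5 RPKM added, in weights and in the entries tested.

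*Fars2* showed how span enters the level. It had only 0.0447 and 0.0478 RPKM at 2.8 mM and 0.0334 and 0.0302 RPKM at 16.8 mM over a span of 420.2 kb, which were nonetheless 1098, 1044, 852 and 645 reads. Per kilobase of exon, with the intronic reads still included, its mean level at 2.8 mM was 9.15 on the RPKM scale, and that of *Farsa* was 12.7 or 1.38 times as high.

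*Vars2*, *Rars2* and *Yars2* had log2 changes of -0.29 ± 0.13, -0.20 ± 0.10 and -0.20 ± 0.14 in the voom fit and were not called. *Hars2* and *Iars2* stood at 0.00 ± 0.12 and 0.04 ± 0.10. *Hars2* and *Hars* lie head to head and share 198 bases, and neither differed measurably between the concentrations. *Sars2*, the mitochondrial seryl enzyme, was the only mitochondrial gene with both 16.8 mM libraries above both 2.8 mM libraries, at 0.492 and 0.445 RPKM against 0.392 and 0.331 RPKM, with a log2 change of 0.38 ± 0.17 that was not called (adjusted p = 0.0789).

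*Lars2*, the mitochondrial leucyl enzyme (chr9:123276058-123371782, plus strand, NCBI build 37), had 8.19 and 26.6 RPKM at 2.8 mM and 5.11 and 20.2 RPKM at 16.8 mM. Replicate 2 was 3.25 times replicate 1 at 2.8 mM and 3.94 times at 16.8 mM, so the groups overlapped and the log2 change of -0.51 ± 0.67 was not called (adjusted p = 0.584). *Rn45s*, the ribosomal RNA precursor, moved with it across the libraries, at 794.8 and 4066 RPKM at 2.8 mM and 700.7 and 3676 RPKM at 16.8 mM, or 5.12 and 5.25 times higher in replicate 2. Within replicate 1 and within replicate 2 the 16.8 mM value of *Lars2* was 0.624 and 0.758 times that at 2.8 mM. Leaving out a library moved the log2 change of *Lars2* from -1.45 to 0.43, and it was called lower without 2.8 mM replicate 1 or 16.8 mM replicate 2. The part of ribosomal RNA reads in the *Lars2* value was not tested. Without *Lars2* the median log2 ratio of the mitochondrial genes was -0.48.

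For 16 pairs the cytosolic and the mitochondrial enzyme for an amino acid could be set side by side. At 2.8 mM the cytosolic gene had the higher RPKM in 15 of 16 pairs, and also in 15 of 16 per kilobase of exon, with *Lars* and *Lars2* as the exception on both scales. The log2 ratio of mean RPKM was lower for the cytosolic gene in 9 pairs and for the mitochondrial gene in 7, and the median difference was -0.04. *Eprs* was counted both with *Ears2* and with *Pars2*, and both pairs are among the 9. With a 13.1% share of *Ddit3* reads taken off *Mars*, which is more than an even spread would give, the split was 8 and 8.

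The pairs differed widely around this median. *Sars* and *Sars2* were farthest apart in one direction, with log2 ratios of -0.70 and 0.37, followed by *Yars* and *Yars2* (-0.95 and -0.19) and *Iars* and *Iars2* (-0.61 and 0.05). *Wars* and *Wars2* were farthest apart in the other direction (0.04 and -0.93), followed by *Farsa* and *Fars2* (-0.05 and -0.54). Both genes had a lower mean at 16.8 mM in 12 of the 16 pairs, the pair of *Mars* among them. In the pair *Eprs* and *Ears2* the log2 ratios were -0.86 and -0.67, and in *Aars* and *Aars2* -0.77 and -0.49. The differences between pair members were not tested.

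**Figure D4:**
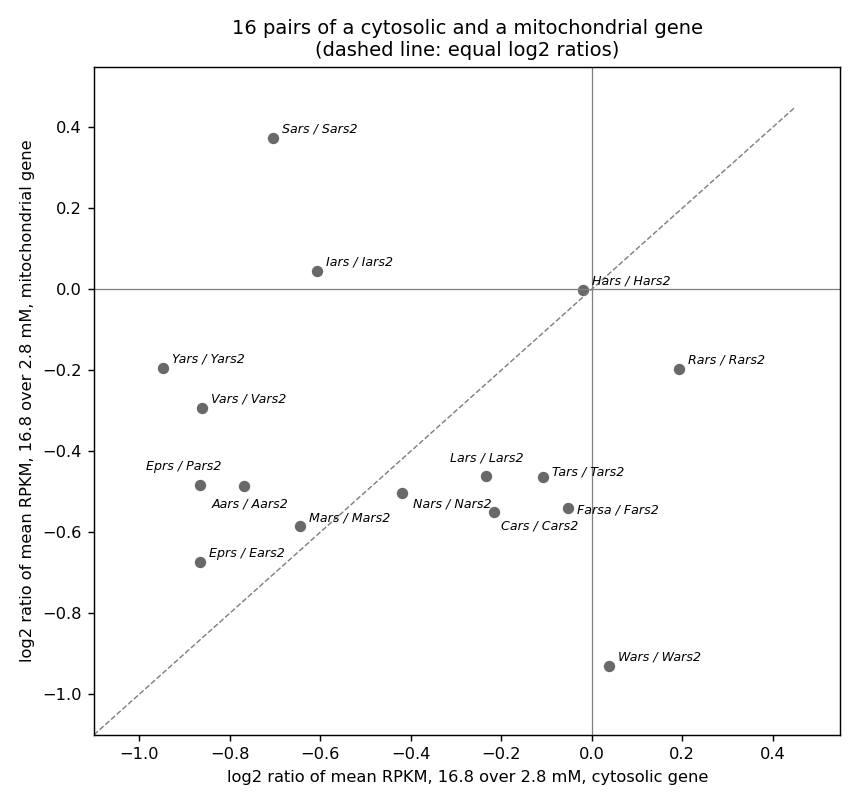
Log2 ratio of mean RPKM (16.8 mM over 2.8 mM glucose) of the mitochondrial gene against that of the cytosolic gene for 16 pairs of synthetases, with a dashed line where both are equal. Points above the line, 9 of 16, are pairs in which the cytosolic gene had the lower ratio, among them *Eprs* both with *Ears2* and with *Pars2*. These were 8 of 16 with a 13.1% share of *Ddit3* reads taken off *Mars*, a share above that of an even spread. *Sars* with *Sars2* and *Wars* with *Wars2* lie farthest from the line on either side.

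Other genes of the integrated stress response were read beside the synthetases from a list of 24, which was drawn up with results of these data known. Of the 20 tested, 11 were lower and 1, *Ddit4*, higher at 16.8 mM glucose, with a median log2 change of -0.57. Among all entries in the limma fit 22.8% were lower and 10.7% higher. *Slc7a1*, among the 11, had 1.40 and 1.35 RPKM at 2.8 mM against 0.756 and 0.746 RPKM at 16.8 mM. It passed the minimum through the group where it is higher. In the fit on reads 15 of 24 were lower and 3 higher, beside 29.1% and 13.7% of all entries in it. The 3 were *Ddit4*, *Slc7a11* and *Cth*, and the log2 change of *Slc7a11* and of *Cth* was 0.60. *Trib3*, *Slc3a2* and *Ppp1r15a*, which encode a pseudokinase, an amino acid transporter subunit and a phosphatase subunit, had log2 changes of -1.96, -1.55 and -1.76. *Atf4* itself, named after its values were seen, had 136.5 and 129.5 RPKM at 2.8 mM and 79.6 and 75.4 RPKM at 16.8 mM (log2 change -0.78, adjusted p = 0.00537). *Asns*, the asparagine synthetase gene and a well-known ATF4 target, also named after its values were seen, had 9.09 and 8.65 RPKM against 7.83 and 8.18 RPKM and was not called (-0.14, adjusted p = 0.344).

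Genes within or beside a member's span can add reads to its value. Small RNA genes lie within *Aars*, *Iars*, *Sars*, *Wars*, *Yars* and *Iars2*. On the opposite strand *D17H6S56E-5* shares 678 bases with *Vars*, *Gm15580* 556 with *Cars*, *Rps19-ps4* 450 with *Lars* and *C230038L03Rik* 382 with *Nars2*. Of these, only the small RNA genes within *Iars2* had values under their names. The part of all these genes in the values was not tested. *C77080* shares 30 bases with *Yars* and had a log2 ratio of 0.27. *Ubfd1* shares 89 bases with *Ears2* (0.26), *Sgpp2* 2329 bases with *Farsb* (0.64) and *Rab3gap2* 2018 bases with *Iars2* (-0.16). Each was opposite in sign to its neighbour, with *Iars2* itself at only 0.05.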

How the data were processed

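Values were deposited as RPKM, in 1 table with a column for each of the 4 libraries, and all columns were used. The submitters' processing notes name STAR, bedtools and a count test, and mm9 (NCBI build 37). The table holds no counts, so the test set for normalized values was used: limma 3.58.1 in R 4.3.3 on log2(RPKM + 0.5), with a variance trend and Benjamini-Hochberg adjustment over all entries with a mean of at least 1 RPKM. Identical entries of a symbol were used once. Depth and reads were reconstructed from steps of the RPKM values and spans of GENCODE transcripts. With a tolerance of 0.1 reads, between 80.8% and 82.4% of low values of spliced genes were whole over the span and between 18.4% and 20.9% over the exons. Reads are approximate, and there were only 2 libraries per group. The test was checked on simulated data. Python 3.11.15, pandas 2.3.3, numpy 2.4.6 and matplotlib 3.10.9 were used otherwise.

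All 36 members were named. Of other lists, genes with the smallest p were named, and so were genes overlapping a member, small RNA genes aside. Members, lists and tests were chosen with earlier results of these data known. Promoters and their coordinates are from RefSeq (GRCm38.p6), and other coordinates from build 37. Alternatives were no variance trend, quantiles or medians made equal between libraries, no minimum or 1 RPKM in every library, 0.1 or 1 RPKM added, the replicate block, each library left out, other choices of entry and voom. The share of *Ddit3* reads, voom with the block and the ratio of means were added after the data were seen.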

Additional observations from a re-analysis of the deposited data

How the results depend on the processing

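Of the 12 calls, 12 were kept without the variance trend, with quantile normalization, median centring, 0.1 or 1 RPKM added, 1 entry per gene, all entries, voom and the replicate block, 10 with 1 RPKM in every library and 7 with no minimum, where *Kars*, *Nars*, *Mars2*, *Pars2* and *Tars2* were lost. Leaving out each library left 7 to 8 cytosolic and 1 to 3 mitochondrial genes lower. Cytosolic genes higher numbered 1 with quantile normalization, median centring and the replicate block, with voom or without, each time *Rars*. Mitochondrial genes lower numbered 0 with no minimum, 1 with 1 RPKM in every library, 9 with voom and 12 with voom and the block, which also made 1 higher. The replicate block added *Gars*, *Lars* and *Lars2* as lower and raised the transcripts called from 2628 to 4067, voom to 7437 and voom with the block to 10120. *Lars2* had an adjusted p of 0.0234 with the block and 2.52e-04 with voom and the block, against 0.584 without, and 5.18e-14 to 0.809 over all alternatives. The labels give the replicates only a number in common. Their deviations correlated (0.310), and *Rn45s* and the exocrine sums were higher in replicate 2 at both concentrations, but with 2 pairs the numbers were not taken as a pairing.

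The cytosolic median log2 change was -0.18 with quantile normalization and -0.19 with median centring. The mitochondrial one was -0.33 as tested, -0.26 and -0.25 with these, -0.23 with no minimum, -0.24 with 1 RPKM in every library, -0.44 and -0.26 with 0.1 and 1 RPKM added, -0.48 with voom and with voom and the block, and -0.29 to -0.23 without a library. That of all transcripts was -0.0356 with quantile normalization, -0.0275 with median centring and -0.0032 with no minimum, and -0.163 to -0.0602 without a library. The sign turned, with quantile normalization and median centring in that order, for *Dars* (0.0098 and 0.0185), *Farsa* (0.0385 and 0.0415), *Hars* (0.0623 and 0.0701), *Qars* (0.0313 and 0.0454) and *Hars2* (0.0772 and 0.0807), none of them called, and for *Hars2* with voom and the block (0.0007). Without a library, *Dars* ranged from -0.149 to 0.0181, *Farsa* from -0.123 to 0.0380, *Hars* from -0.0752 to 0.0472, *Qars* from -0.126 to 0.0486, *Hars2* from -0.0970 to 0.0902 and *Lars2* from -1.45 to 0.43. *Mars* turned to 0.0912 with 13.1% of the *Ddit3* reads taken off, which is more than an even spread would give. The cause of these changes was not tested. Taking off all *Ddit3* reads was not run, since *Ddit3* had more reads than *Mars* at 2.8 mM.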

Other observations

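The factors that carry out translation in mitochondria beside the synthetases were measured in the same libraries. Of 9 listed genes 5 were tested by limma, 0 were lower (1 at an unadjusted p under 0.05, and 3 of 9 by voom on reads) and 1 was higher at 16.8 mM glucose. The latter was *Tufm*, which encodes the mitochondrial elongation factor Tu, at 3.93 and 3.44 RPKM at 2.8 mM and 4.75 and 4.76 RPKM at 16.8 mM (log2 change 0.33, limma adjusted p = 0.0456). *Mtif3*, an initiation factor, had 2.59 and 2.33 RPKM against 2.10 and 1.79 RPKM and was not called (log2 change -0.28, adjusted p = 0.0720). *Gfm2*, a ribosome recycling factor, and *Tsfm*, the elongation factor Ts, had log2 changes of -0.14 and -0.08 and were not called. Among all entries 22.8% were lower and 10.7% higher in the limma fit, and 29.1% and 13.7% in the fit on reads.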
